A study of Homo sapiens with 21 samples.

Results

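The Frizzled family comprises the 10 human genes FZD1 to FZD10, taken by gene symbol from the 60651 genes of the count table. All 10 had a row, 9 of them passed the count filter in at least one comparison, and FZD10 passed in none and is too low to judge. The 21 libraries came from subcutaneous tumors of A549-Luc2 cells, a luciferase-expressing derivative of the human lung adenocarcinoma line A549, grown with Matrigel in the hind flank of female athymic nu/nu mice of 6 to 8 weeks. Groups of 10 mice were formed once tumors averaged 80 to 100 mm3, and 7 tumors per group were sequenced. The Control group received the vehicle of DMSO, ethanol, PEG400 and corn oil, and the Oxy186 and Oxy210 groups received the oxysterol of that name in the same vehicle, at 50 mg/kg each day by oral gavage. All tumors derive from the same line, and the athymic host lacks mature T cells. Only reads assigned to the human genome were counted, so the values are read as those of the implanted cells and not of the mouse stroma. Whether any mouse reads were assigned to human genes was not tested.

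Frizzled proteins are receptors with a bundle of membrane-spanning helices and an extracellular cysteine-rich domain that binds WNT ligands. With the co-receptors LRP5 and LRP6 they recruit the cytoplasmic Dishevelled proteins and stabilize β-catenin, while other Frizzled signals act on cell polarity without β-catenin. The family is usually divided by sequence into FZD1, FZD2 and FZD7, into FZD5 and FZD8, into FZD4, into FZD9 and FZD10, and into FZD3 and FZD6. The study asked at which step of WNT signaling Oxy186 and Oxy210 act, and the comparisons below ask which receptor transcripts the tumors contained and whether these differed under the compounds.

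The genes differ in structure and base composition, which matters for the comparisons that follow. FZD1, FZD2, FZD7, FZD8, FZD9 and FZD10 each consist of 1 exon in the GENCODE annotation of GRCh38. FZD4 and FZD5 have 2 exons, and FZD3 and FZD6 have 8 and 9 separate exon blocks. Exon GC content ran from 35.0% in FZD3 and 38.8% in FZD6 through 46.2% in FZD4, 47.6% in FZD1, 51.3% in FZD5, 55.8% in FZD2, 56.4% in FZD7 and 58.4% in FZD10 to 64.6% in FZD8 and 68.5% in FZD9. The contrast was sharper at the last base of codons, where G or C filled 37.1% in FZD6, 40.5% in FZD3 and 59.8% in FZD4, against 88.7% to 93.7% in the other 7 genes.

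The coding windows below, each of 60 bases read 5′ to 3′ on the coding strand, show this difference at the best-known shared element of the family. The capitals mark the codons of the Lys-Thr-x-x-x-Trp motif, which follows the last membrane helix and binds Dishevelled. All lie in coding exons of GRCh38, at chr17:44559294-44559353 on the plus strand for FZD2, chr2:202036280-202036339 plus for FZD7, chr2:207767129-207767188 minus for FZD5, chr10:35639570-35639629 minus for FZD8, chr7:73435580-73435639 plus for FZD9 and chr11:86951223-86951282 minus for FZD4.
FZD2: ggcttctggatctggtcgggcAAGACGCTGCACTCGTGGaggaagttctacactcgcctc
FZD7: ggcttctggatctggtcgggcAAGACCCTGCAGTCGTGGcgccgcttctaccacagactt
FZD5: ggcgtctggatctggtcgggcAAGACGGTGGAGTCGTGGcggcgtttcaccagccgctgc
FZD8: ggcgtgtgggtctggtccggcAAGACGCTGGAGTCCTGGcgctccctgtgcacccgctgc
FZD9: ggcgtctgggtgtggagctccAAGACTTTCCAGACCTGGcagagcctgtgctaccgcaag
FZD4: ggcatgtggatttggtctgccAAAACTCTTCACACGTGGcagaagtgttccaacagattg
In FZD2, FZD5, FZD7 and FZD8 all 6 codons of the motif ended in G or C. In FZD9 5 of the 6 did, and in FZD4 only 3 did. The window as a whole held 48.3% GC in FZD4 and 71.7% in FZD8.

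The libraries held 13787493 to 17865119 counts, with a median of 15031344. Every gene of the A549 and epithelial marker list, 10 of 10, passed the filter, and the summed list reached 4940 to 9720 CPM (counts scaled to the library total) per kilobase of exon. Of the fibroblast list 3 of 6 genes passed and the sum was 17.8 to 91.1, nearly all of it LUM (median 35.0) and COL1A1 (median 4.33), while COL1A2 was at 0 in 17 of 21 tumors. The endothelial sum did not exceed 1.02, with KDR and VWF at 0 in 18 of 21 tumors, and the leukocyte sum was 3.98 to 16.2, with LYZ the main gene and PTPRC at 0 in 5. In each of these lists the ranges of the groups overlapped. Libraries differed in how counts varied with gene GC content. This is given here as a GC slope, the change in log2 CPM for each 10 points of exon GC relative to the gene's mean over all tumors. The slope was -0.15 to 0.397 in the control group and -0.329 to 0.262 in the Oxy210 group. It was -0.511 to -0.18 in Oxy186-treated samples r1-r4 and 0.0789 to 0.491 in samples r5-r7, so that within the Oxy186 group the 2 sets did not overlap. Samples r1-r4 are those the study kept for its own test after a principal component plot of these libraries.

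Control tumors contained transcripts of 9 Frizzled genes at levels that spanned more than an order of magnitude. Levels between genes are given per length, as CPM per kilobase of exon. FZD6, which signals mainly outside the β-catenin route, had the highest mean at 15.6 ± 2.57 (SD, n = 7), and its 7 values ran from 12.3 to 18.5 with a median of 15.8. FZD2, a receptor for WNT5A and WNT3A, followed at 10.9 ± 2.26 with a range of 8.84 to 15.2. FZD5, which pairs with WNT5A and WNT7B among other ligands, stood at 5.19 ± 0.7. FZD7, often studied in stem cells and tumors, stood at 2.8 ± 0.695, and FZD8, a relative of FZD5, at 2.51 ± 0.859. FZD3, known for its part in axon guidance and planar polarity, stood at 2.03 ± 0.257. FZD1 (0.988 ± 0.237), FZD4, the receptor for Norrin (0.577 ± 0.15), and FZD9 (0.406 ± 0.192) were all below or near 1. FZD10 came last at 0.0205 ± 0.0239, and 3 of 7 control tumors had 0 counts for it. In bulk tumors, a lower share of cells with a transcript and less of it in each cell cannot be told apart, here and in what follows.

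**Figure D1:**
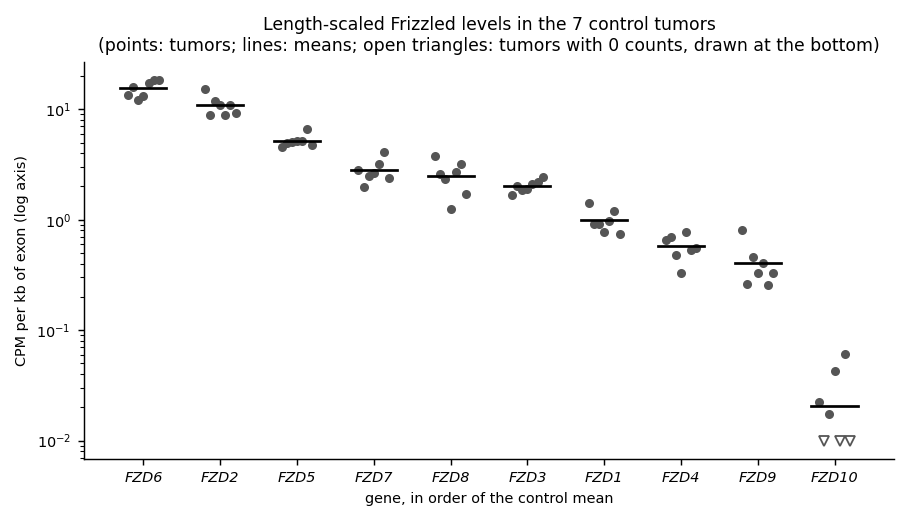
Length-scaled level of each Frizzled gene in the 7 control tumors (y axis: CPM per kilobase of exon, log scale; x axis: genes in order of their mean). Points are tumors, lines are means and open triangles are tumors with 0 counts; FZD6 and FZD2 lead with means of 15.6 and 10.9, and FZD10 sits apart at 0.0205.

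Of the 9 neighbouring pairs in this order, 5 differed beyond the spread between tumors. The test was a two-sided exact sign-flip permutation test of the log2 ratio within a tumor, adjusted over the 9 pairs; with 7 tumors it cannot give a p below 0.0156. The order, and with it the pairs and their direction, was taken from the same 7 tumors. Levels were not corrected for GC content. FZD2 exceeded FZD5 by 1.05 ± 0.354 (log2 ratio, mean ± SD), FZD5 exceeded FZD7 by 0.91 ± 0.233, FZD3 exceeded FZD1 by 1.06 ± 0.448 and FZD1 exceeded FZD4 by 0.79 ± 0.401. Each of these held in 7 of 7 tumors (exact p = 0.0156, adjusted p = 0.0281). FZD9 exceeded FZD10 by the same test, although the size of that ratio (5.23 ± 2.22) depends on the pseudocount of 0.1 counts. FZD6 was above FZD2 in 6 of 7 tumors, by 0.53 ± 0.475, which missed the threshold (exact p = 0.0469, adjusted p = 0.0703). FZD7 and FZD8 (adjusted exact p = 0.359), FZD8 and FZD3 (0.359) and FZD4 and FZD9 (0.1) were not separated either. FZD4 shares 18.9% of its exon bases with PRSS23 on the opposite strand, a gene with a median log2 CPM of 7.9, and since no source states whether counting used strand, part of the FZD4 counts cannot be assigned with certainty. FZD8 overlaps MIR4683 and an unnamed gene over 7.9% of its exon bases on the opposite strand and 2% on the same one.

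Summed over the 10 genes, the length-scaled Frizzled level was nearly flat across the groups. It was 41 ± 3.95 in control tumors, 40 ± 2.9 in the Oxy186 group and 40.1 ± 2.54 in the Oxy210 group (mean ± SD, n = 7 each). In Oxy186 samples r1-r4 the sum was 39.7 ± 3.2. FZD2 and FZD6 together made up 58.9% to 73.5% of it in every tumor. How they divided it varied more: the ratio of FZD6 to FZD2 was 0.895 to 2.02 in control tumors, 0.984 to 3.85 under Oxy210 and 0.841 to 5.33 under Oxy186. Its 2 highest values were 5.33 in r4 and 4.73 in r3 of the Oxy186 group, the libraries with GC slopes of -0.473 and -0.511, and the next was 3.85 in Oxy210 tumor 5, with a slope of -0.329. The lowest was 0.841 in Oxy186 tumor 6, which had the highest slope, 0.491.

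In Oxy186-treated samples r1-r4 against the 7 controls, FZD9 and FZD2 were lower and no Frizzled gene was higher. The test was the quasi-likelihood F test of edgeR, its p-values adjusted by the Benjamini-Hochberg method across the 16852 genes tested, and a gene was called when its fold change exceeded 2 at an adjusted p of at most 0.05. Of the 9 Frizzled genes tested 1 was called, FZD9, where 8.34% of all genes were. At the adjusted p alone 2 were lower and 0 higher, where 15.0% of all genes were lower and 4.73% higher. At an unadjusted p under 0.05 the same count was 2 of 9, where 34.7% of all genes passed. The median log2 fold change of all tested genes was 0.006. Because the 4 samples were picked from these same libraries, the p-values describe a chosen subset. FZD9 moreover passed the count filter through the control tumors alone, so it could come out only as lower.

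FZD9, a receptor known from neural and bone tissue, was among the least abundant members that could be tested. Control tumors 1 to 7 had 26, 9, 19, 11, 15, 9 and 11 counts. Oxy186 tumors 1 to 7 had 2, 2, 1, 0, 2, 12 and 14 counts. Oxy210 tumors 1 to 7 had 16, 6, 7, 6, 9, 0 and 5 counts. The Oxy186 group was thus split, with 5 tumors at or under 2 counts and 2 within the control range, and the 5 included r5, whose GC slope was 0.0789. The r1-r4 fold change was -3.40 on the log2 scale (SE 0.587, 95% CI -4.65 to -2.15, edgeR adjusted p = 0.00164), and it rested on 5 counts in all in the 4 treated tumors. Leaving out each of the 11 tumors in turn kept the call, with fold changes of -3.72 to -2.96. The call was lost with GC offsets, described further on, where the value was -1.90 (adjusted p = 0.0593). With the replicate number added as a block beside these offsets, the adjusted p was 0.291.

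Over all 7 Oxy186 tumors the FZD9 fold change was -1.54 (SE 0.58, 95% CI -2.77 to -0.322), with an edgeR p of 0.0163 and an adjusted p of 0.862. Without r7 it was -2.14. For Oxy210 against control the gene was below the count filter. With all 21 libraries in one fit its Oxy210 fold change was -1.04 (95% CI -2.21 to 0.138, edgeR adjusted p = 0.608). Without the filter it was -1.02 (edgeR adjusted p = 0.392), and by DESeq2 -1.03 (adjusted p = 0.256), so none of these passed. In a test added after the counts were seen, mean log2 CPM of FZD9 was -1.55 in the Oxy186 group and -0.98 in the Oxy210 group against 0.0324 in controls. The differences of -1.58 and -1.01 had two-sided exact permutation p-values of 0.014 and 0.0134 (n = 7 per group, smallest possible p 0.000583). On this scale 5 of 7 tumors in the Oxy186 group, and 6 of 7 in the Oxy210 group, lay below every control tumor. Oxy210 tumor 5 did so only narrowly (-0.513 against -0.443 in control tumor 6), with the same 9 counts as control tumors 2 and 6. Because the test was chosen after these same counts were seen, its p-values cannot serve as support for a lower level in either group. They are also not adjusted for the choice of this gene among all genes. At 26 counts or fewer in every tumor the level of FZD9 is known only coarsely.

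FZD2 was the other member that was lower in samples r1-r4. Control tumors had 492 to 794 counts, with a median of 598. Oxy186 tumors 1 to 7 had 531, 459, 259, 270, 435, 758 and 535 counts. On the log2 CPM scale, all of r1-r4 (4.12 to 5.02) lay below all controls (5.07 to 5.85), although r1 and r2 did so narrowly. FZD9 and FZD2 were the 2 members of 9 with this separation, where 8.40% of all genes showed it. Samples r1-r4 were picked because they stood apart on a plot of these same libraries, so the separation cannot serve as support. The fold change of FZD2 was -0.72 (SE 0.208, 95% CI -1.16 to -0.277, edgeR adjusted p = 0.0252). It depended on r3 and r4, since without r3 it was -0.59 (adjusted p = 0.0947) and without r4 it was -0.53 (adjusted p = 0.108), so neither passed the threshold. Over all 7 Oxy186 tumors it was -0.40 (95% CI -0.851 to 0.0558), and under Oxy210, where the 7 tumors had 322 to 764 counts, it was -0.17 (95% CI -0.517 to 0.168).

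**Figure D2:**
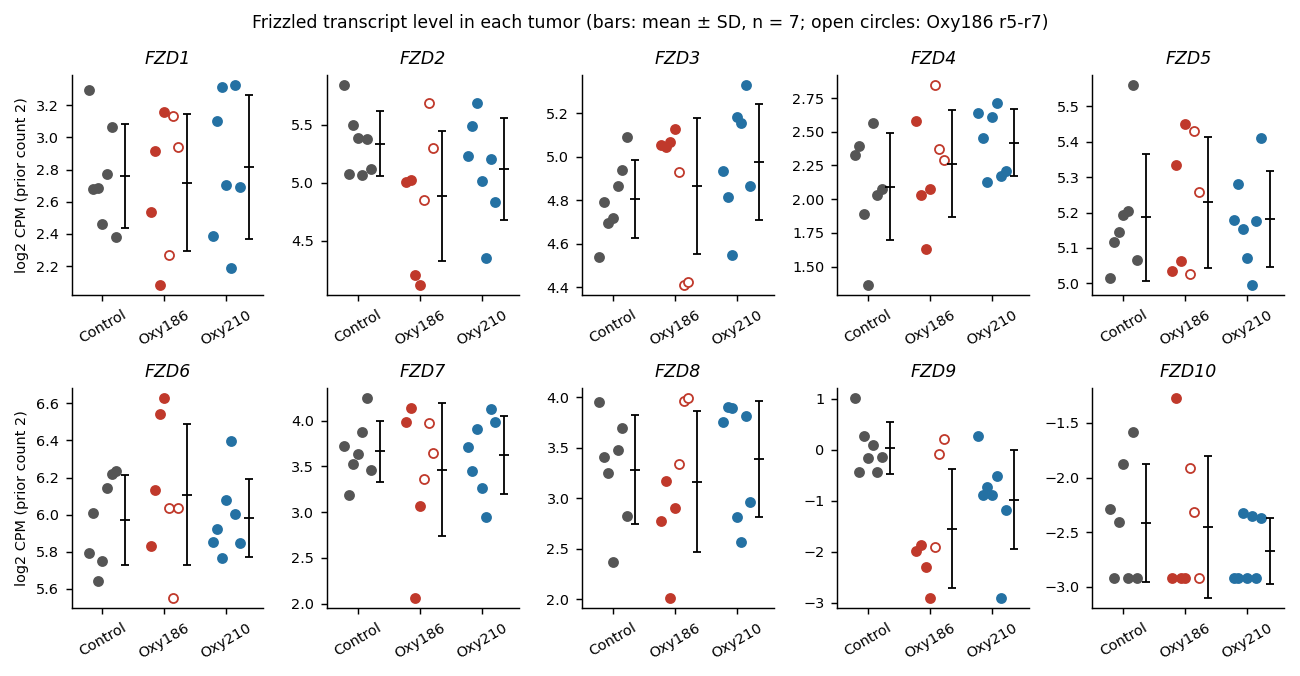
Log2 CPM (prior count 2) of each Frizzled gene in every tumor by group; bars give the mean ± SD of 7 tumors, and open red circles are Oxy186 r5-r7. FZD9 and FZD2 are the panels in which the filled Oxy186 circles all lie below the control tumors; FZD10 rests on at most 4 counts in any tumor.

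The other 7 tested members passed no threshold in samples r1-r4. FZD8, the partner of FZD5 in its subfamily, had a fold change of -0.60 (95% CI -1.21 to 0.00143, adjusted p = 0.145), with values of 2.01 to 3.17 log2 CPM against 2.37 to 3.96 in controls. The pair FZD3 and FZD6 had positive fold changes of 0.26 (95% CI -0.00654 to 0.518, adjusted p = 0.153) and 0.33 (95% CI -0.0246 to 0.681, adjusted p = 0.172). For FZD6 the values of r1 to r4 were 5.83, 6.13, 6.54 and 6.63 log2 CPM, against 5.64 to 6.24 in controls, so r3 and r4 lay above the control range and r1 and r2 within it. FZD7 had the widest spread, with r1 and r2 at 3.99 and 4.13 log2 CPM and r3 and r4 at 2.06 and 3.06, for a fold change of -0.18 (95% CI -0.84 to 0.478). Without r3 it was 0.1. FZD1 (-0.07, 95% CI -0.567 to 0.427), FZD4 (-0.017, 95% CI -0.55 to 0.515) and FZD5 (0.031, 95% CI -0.254 to 0.317) were centred near 0. The intervals for FZD1, FZD3, FZD4, FZD6, FZD7 and FZD8 extend beyond 0.4 log2 units from 0, and those of FZD3 and FZD5 were the narrowest of the 7.

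FZD5 was the steadiest of the abundant receptors. Its 21 values lay between 5 and 5.56 log2 CPM, with an SD of 0.161. Group means were 5.19 ± 0.179 in controls, 5.23 ± 0.186 under Oxy186 and 5.18 ± 0.135 under Oxy210. FZD7, in contrast, had an SD of 0.505 over the same tumors and FZD8 one of 0.584. FZD10 had 0 to 4 counts in every tumor, 7 in all in the control group, 7 in the Oxy186 group and 3 in the Oxy210 group. A tumor with 0 counts allows a level of up to 0.17 to 0.22 CPM (3 counts, counting error only), so no difference in FZD10 was detectable at this depth.

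When the GC trend of each library was removed by an offset in the same fit, 0 of 9 Frizzled genes passed at an adjusted p of 0.05 in samples r1-r4, where 4.05% of all genes did. At an unadjusted p under 0.05 the count was 3 of 9, where 18.7% of all genes passed. FZD9 then had a fold change of -1.90 (95% CI -3.02 to -0.768, adjusted p = 0.0593) and FZD2 one of -0.34 (95% CI -0.661 to -0.0184, adjusted p = 0.239). FZD8 turned from negative to positive, at 0.55 (95% CI 0.0109 to 1.09, adjusted p = 0.257). FZD3 and FZD6 moved close to 0, at -0.012 and 0.067. The GC slopes of r1-r4 (-0.511 to -0.18) all lay below those of the controls (-0.15 to 0.397). In this comparison, a technical GC trend and a difference between the groups that follows GC content therefore cannot be told apart. The offsets may remove either, here and for the partner genes below.

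**Figure D3:**
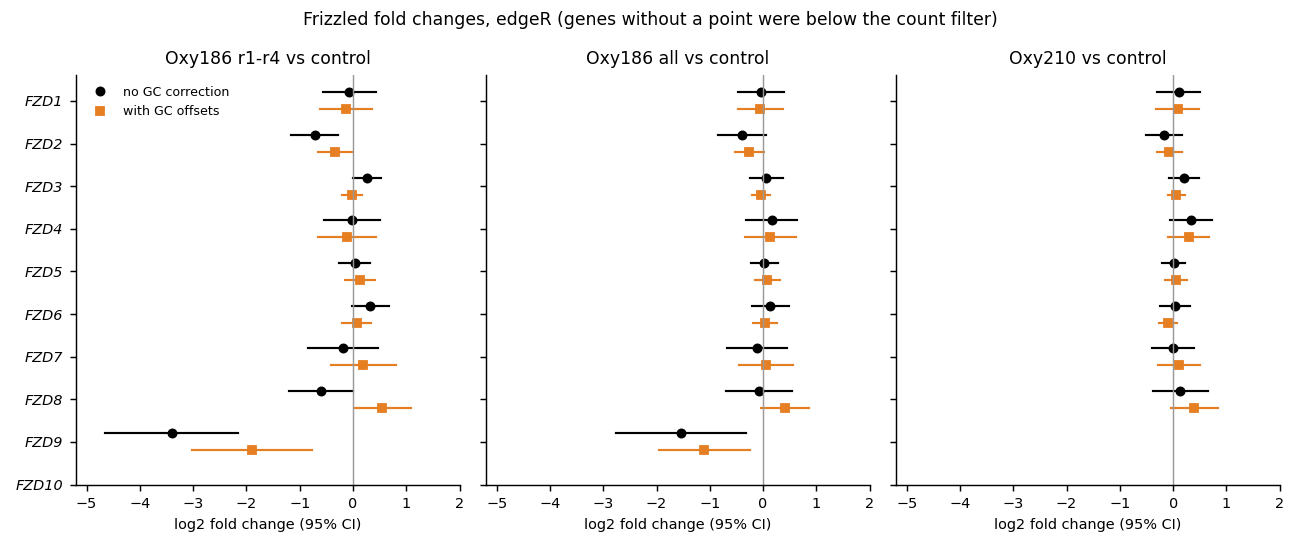
Log2 fold change with 95% confidence interval of each tested Frizzled gene in 3 comparisons with the control group, from edgeR without (black) and with (orange) GC offsets. In samples r1-r4 the FZD9 value goes from -3.40 to -1.90 and that of FZD8 from -0.60 to 0.55 with the offsets; genes without a point were below the count filter.

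Over the labelled groups of 7, no Frizzled gene was called by edgeR, limma voom or DESeq2. Against controls, 0 of 9 tested members were called for Oxy186 by edgeR, where 0% of all 16291 genes were. FZD9, 1 of 9, had an unadjusted edgeR p under 0.05, where 3.79% of all genes did. Fold changes of the other 8 lay between -0.40 for FZD2 and 0.16 for FZD4. By limma voom 2 of 9 had an unadjusted p under 0.05, FZD9 and FZD2, where 1198 of 16291 genes did. For Oxy210, again by edgeR, 0 of 8 tested members were called, where 0% of all 16396 genes were. An unadjusted p under 0.05 was reached by 0 of 8, where 13.8% of all genes did so. The largest value was that of FZD4 at 0.33 (95% CI -0.0669 to 0.725), with 63 to 102 counts in treated tumors and 35 to 92 in controls. FZD3 followed at 0.21 (95% CI -0.0731 to 0.484). FZD5, FZD6 and FZD7 had intervals of -0.202 to 0.222, -0.245 to 0.307 and -0.392 to 0.39. These comparisons share the same 7 control tumors.

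Oxy186 and Oxy210 were given at the same dose and schedule, and their direct comparison is the single pair of compounds in the series. Between the groups of 7, 0 of 8 tested Frizzled genes were called, where 0% of all 16361 genes were, and 0 of 8 had an unadjusted p under 0.05, where 4.06% of all genes did. Fold changes of Oxy186 over Oxy210 lay between -0.20 for FZD2 (95% CI -0.693 to 0.293) and 0.14 for FZD6 (95% CI -0.203 to 0.48). The narrowest interval was that of FZD5, from -0.187 to 0.271, and the widest that of FZD8, from -0.811 to 0.433. The intervals do not show that the compounds act alike on these genes.

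Across all 21 tumors, Frizzled levels were set against the GC slope of the library. The slope is itself fitted to log2 CPM on exon GC in these libraries. GC-rich genes therefore tend to rise and GC-poor genes to fall with it by construction. At an adjusted p of 0.05 (Pearson's r, 100000 permutations of the libraries, adjusted over all 16990 genes) 5 of 9 members passed, where 50.9% of all genes did, so the share is close to the background. FZD2 had r = 0.892 and rho = 0.873 (permutation p = 1e-05 for both, the smallest they can give; adjusted p = 6.37e-05 and 8.18e-05), and 6.31% of all genes had an r as large in size. FZD3 (r = -0.825, rho = -0.883, adjusted p = 0.000111 and 8.18e-05) and FZD6 (r = -0.815, rho = -0.77, adjusted p = 0.000111 and 0.000617), the GC-poor pair, ran the opposite way. FZD9 (r = 0.726, rho = 0.741, adjusted p = 0.000837 and 0.000981) and FZD8 (r = 0.703, rho = 0.7, adjusted p = 0.00122 and 0.00183) rose with the slope.

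The relation was also present within groups of 7 for FZD2 (r of 0.803 in controls, 0.897 under Oxy186 and 0.917 under Oxy210), for FZD3 (-0.979, -0.892 and -0.79) and for FZD6 (-0.85, -0.817 and -0.852). For FZD8 it was 0.341, 0.9 and 0.8, and for FZD9 0.757, 0.867 and 0.293. Without Oxy186 r3 and r4, the 2 libraries farthest from the median slope, r was 0.823 for FZD2, -0.861 for FZD3, -0.693 for FZD6, 0.612 for FZD8 and 0.604 for FZD9. FZD7 had r = 0.473 and rho = 0.229 (adjusted p = 0.0579 and 0.418), and without those libraries r fell to 0.104, so that it rested on them. FZD1 had r = 0.402 (rho = 0.358, adjusted p = 0.119 and 0.178), while FZD4 (r = 0.0727, rho = 0.0299, adjusted p = 0.81 and 0.927) and FZD5 (r = 0.083, rho = 0.144, adjusted p = 0.783 and 0.628) did not follow the slope detectably.

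**Figure D4:**
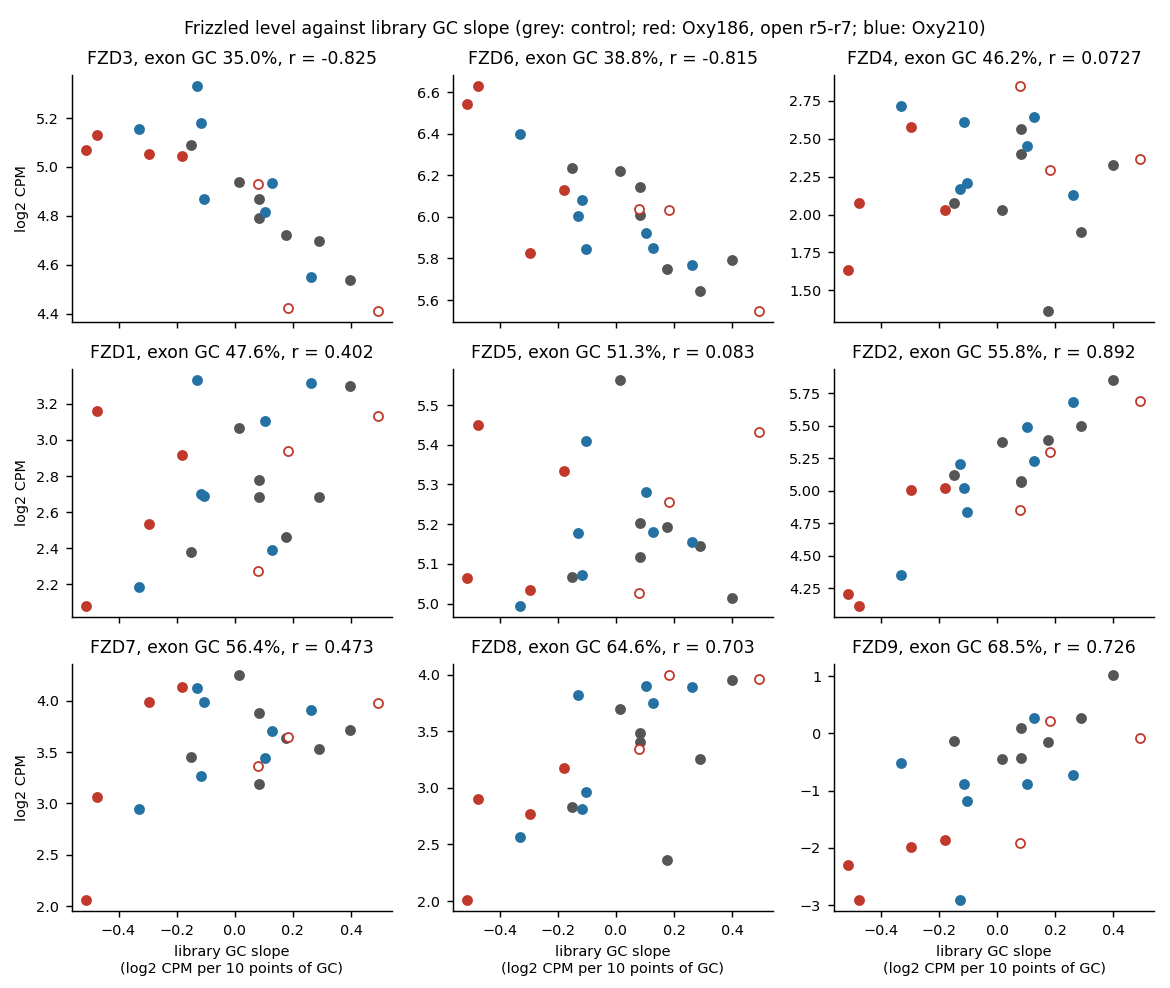
Log2 CPM of the 9 testable Frizzled genes (y axis) against the GC slope of each library (x axis, log2 CPM per 10 points of exon GC), in order of exon GC; grey is control, red Oxy186 with r5-r7 open, and blue Oxy210. FZD3 and FZD6 slope downward (r = -0.825 and -0.815), FZD2 upward (r = 0.892), and FZD4 and FZD5 show no trend (r = 0.0727 and 0.083).

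Among each other, with group means removed, Frizzled levels did not divide along subfamily lines alone. Of the 36 pairs, 9 had a Pearson's r of at least 0.5 and 5 of -0.5 or lower, with a median of 0.0255; these are descriptions over 21 libraries that share the GC trend. The highest were FZD2 with FZD8 (0.741), FZD1 with FZD8 (0.715) and FZD3 with FZD6 (0.679), of which the last is a subfamily pair. FZD1, FZD2 and FZD7, the closest relatives, had r of 0.562 to 0.634 among themselves, and FZD5 and FZD8 one of 0.324. The most opposed were the 2 most abundant receptors, FZD2 and FZD6 (-0.834), then FZD3 and FZD9 (-0.756) and FZD2 and FZD3 (-0.715). FZD4 had no r above 0.358 with any other member.

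**Figure D5:**
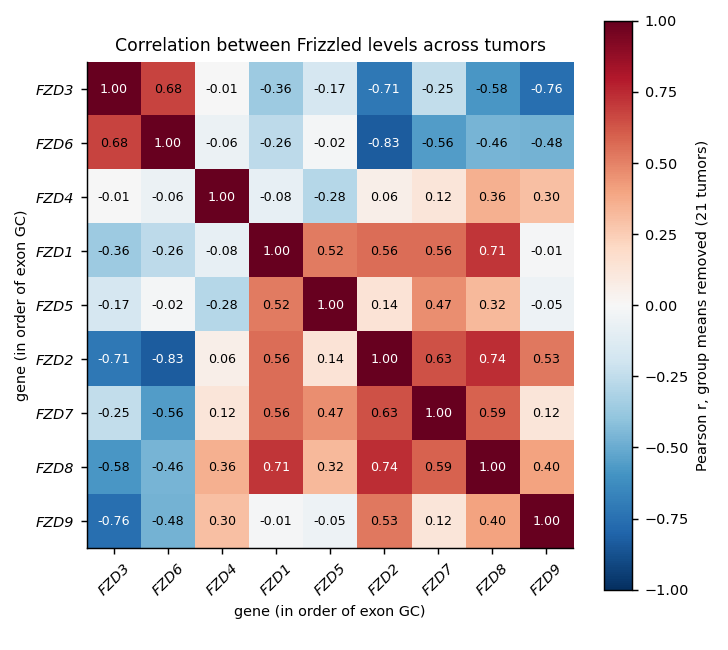
Pearson's r between the log2 CPM of Frizzled genes over 21 tumors after removing group means, with genes in order of exon GC. FZD3 and FZD6 (0.679) sit in 1 corner, opposed to FZD2, FZD8 and FZD9, and the lowest value is that of FZD2 with FZD6 (-0.834).

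For the 3 members with the highest mean log2 CPM, the genes whose levels ran most alike over the 21 tumors were sought among 13608 genes. Group means were removed, and exon GC content is given beside each r. Whether these genes were closer in GC content than others was not tested. For FZD6 (38.8%) they included RINT1 (r = 0.922, GC 41.4%) and ARPP19 (r = 0.913, GC 38.9%). For FZD2 (55.8%) they were SLC35B2 (0.96, 57.4%), EMC10 (0.946, 56.7%) and GRN (0.945, 61.9%). For FZD5 (51.3%) they were HUWE1 (0.775, 50.4%), PANK2 (0.774, 52%) and METTL16 (0.772, 48.3%), whose r was lower.

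The genes that act beside the Frizzled receptors were followed as 5 lists of 44 genes in all, of which 32 could be tested in samples r1-r4. In that comparison 10 were lower and 1 higher at an edgeR adjusted p of 0.05, beside 15.0% lower and 4.73% higher among all genes. With the GC offsets 0 passed in either direction, while 2 had a positive and 2 a negative value at an unadjusted p under 0.05, which 18.7% of all genes reached in that fit. In the other 3 comparisons 0 passed by edgeR, limma voom or DESeq2. At an unadjusted edgeR p under 0.05 the counts there were 0 for all Oxy186 tumors, 2 for Oxy210 and 0 for Oxy186 against Oxy210.

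Of the 8 co-receptors tested, 1 was lower. LRP5, the co-receptor that β-catenin signaling shares with LRP6, had log2 CPM of 5.22 to 6.52 in r1-r4 and 6.32 to 7.15 in controls, with a fold change of -0.68 (SE 0.226, edgeR adjusted p = 0.0453). With GC offsets it was 0.28 (adjusted p = 0.394), the opposite sign. LRP6 had 6.68 to 7.02 log2 CPM against 6.34 to 6.92 and a fold change of 0.28 (adjusted p = 0.136), which was 0.061 with the offsets. LRP5 has an exon GC content of 62.6% and LRP6 one of 41%. Under Oxy210 LRP6 had a fold change of 0.26 (95% CI 0.0144 to 0.515, edgeR adjusted p = 0.335). The list's median log2 fold change in r1-r4 was -0.0019.

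Of the 11 cytoplasmic and planar partners 5 were lower and 1 higher in r1-r4, with a list median of -0.29. DVL1, one of the Dishevelled proteins that bind the motif shown above, fell by 1.19 on the log2 scale (edgeR adjusted p = 0.00229), from 4.99 to 5.97 log2 CPM in controls to 3.86 to 4.81 in r1-r4 without overlap. With GC offsets its value was 0.23 (adjusted p = 0.325). CELSR2 and CELSR3, cadherins of planar polarity, had -0.77 and -0.76 (adjusted p = 0.0206 and 0.0188), and 0.075 and 0.028 with the offsets. Named after their values were seen, the other members past the threshold were DVL2 (-0.76), DVL3 (-0.51) and the higher gene INVS (0.48, adjusted p = 0.0319), which encodes inversin.

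Of the 5 tested genes of receptor turnover, LGR6, a receptor for R-spondins, was lower in r1-r4 (-1.57, edgeR adjusted p = 0.00744; -0.89 and 0.135 with GC offsets). RNF43 and ZNRF3, the ubiquitin ligases that remove Frizzled from the membrane, did not pass the test. Of the 7 tested secreted binders and their receptors, KREMEN1 (-0.96, adjusted p = 0.0127) and KREMEN2 (-2.08, adjusted p = 0.014), which bind Dickkopf proteins together with LRP6, were lower. With GC offsets they had -0.58 and -0.46 (adjusted p = 0.126 and 0.731). KREMEN2 lay at -2.3 to -0.956 log2 CPM in r1-r4, near the -2.92 of a tumor with 0 counts, against -0.894 to 0.53 in controls. It passed the count filter through the controls, so it could come out only as lower, and the size of its fall is known only coarsely. SMO, the other class F receptor and a sterol-binding relative of the Frizzled proteins, had a fold change of -0.64 in r1-r4 (adjusted p = 0.0206) and 0.14 with the offsets (adjusted p = 0.556).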

How the data were processed

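RNA-seq libraries of 21 A549-Luc2 xenografts were analysed. The authors trimmed reads with Trimmomatic (version 0.39), aligned them with STAR (version 2.7.6a) to the combined GRCh38.p13 and GRCm39 genomes, kept human alignments and counted uniquely mapped reads with featureCounts of Subread (version 2.0.1); the deposited counts per gene are raw. The deposited log2 CPM table of the 7 controls and Oxy186 r1-r4 was made by the authors with edgeR and served as a check only: recomputed values differed by at most 4.97e-14 over 16852 genes.

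Counts were filtered with filterByExpr, TMM-normalized and tested with edgeR (version 4.0.16; R 4.3.3), with limma voom (3.58.1) and DESeq2 (1.42.0) as alternatives. Log2 CPM used a prior count of 2 and TMM over all 21 libraries; the GC offsets are natural splines (4 df) of log2 CPM on exon GC, fitted per library. Gene length, GC content and windows came from GENCODE annotation on GRCh38. Permutations used Python 3.11.15 with SciPy 1.17.1. Correlations with the GC slope were adjusted over all genes rather than, as first planned, over the family alone. Scripts were tested on simulated data. Named genes were all members, LRP5, LRP6, list genes past adjusted p 0.05 (at most the 3 of largest change per list and comparison) and the 3 genes most alike to each of the 3 most abundant members, of which 1 is not reported here. The members and lists were chosen with earlier results of these data known. Labels name separate replicates but not separate mice, so p-values measure the spread between these samples.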

Additional observations from a re-analysis of the deposited data

Results flagged for a closer look

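FZD5 in control tumor 6 stood apart from its group at 5.56 log2 CPM, with the next control at 5.2, a gap of 0.655 of the whole range of the 7 tumors. It was the 1 outlying library among 27 sets of 7 tumors (9 genes in each group), where chance gives about 1.4. Without it, FZD5 fold changes were 0.102 for Oxy186 r1-r4, 0.119 for all Oxy186 tumors and 0.0816 for Oxy210, against control.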

How the results depend on the processing

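In samples r1-r4, FZD9 stayed called by voom, DESeq2, RLE, library size alone, no filter, all 21 libraries in one fit, the replicate block and every left-out tumor. These fits all draw on the same chosen samples and their 5 FZD9 counts, so they are not independent support. With at least 10 counts in every library FZD9 was not tested, so 0 members were called and 1 (FZD2) passed the adjusted p. GC offsets gave 0 called and 0 past the adjusted p, with 0 partner genes, and so did the replicate block with GC offsets (0, 0 and 0). Without Oxy186 r3 or r4, 1 member passed in place of 2, over a range of 1 to 2, and 4 partner genes in place of 11, over a range of 4 to 13. Replicate numbers are shared between groups, and correlations of same-numbered tumors ran from -0.398 to 0.329. With no differently numbered tumors set beside them, these values do not show whether the numbers pair the tumors. The replicate block gave 6 partner genes and 2 members past the adjusted p. Of the neighbouring pairs in the control order, 0 to 7 passed without one control tumor, in place of 5; with 6 tumors the test allows no smaller p than 0.0312, so that a pair can pass only where 6 or more pairs reach that p.

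The Frizzled values below that changed sign had missed an adjusted p of 0.05 in the first place; LRP5, DVL1, CELSR2, CELSR3 and SMO, which had passed it in r1-r4, changed sign with GC offsets, as given above. In r1-r4, GC offsets gave FZD3 -0.012, FZD7 0.197 and FZD8 0.55, and with the replicate block added -0.00118, 0.351 and 0.807. FZD4 was 0.0124 by RLE, 0.0225 by library size alone, 0.00103 with at least 10 counts, 0.0802 with the replicate block, 0.016 by DESeq2 and 0.0105 with all libraries. For all Oxy186 tumors, GC offsets gave FZD3 -0.0443, FZD7 0.0531 and FZD8 0.413, and the replicate block with GC offsets FZD3 -0.0496 and FZD8 0.428. For Oxy210, GC offsets gave FZD6 -0.0947 and FZD7 0.11 (-0.0923 and 0.113 with the replicate block), FZD7 was 0.0474 by library size alone, and FZD5 was -0.00998 with all libraries. For Oxy186 over Oxy210, FZD8 was 0.0186 with GC offsets and 0.0228 with the replicate block added, and FZD5 -0.00284 by library size alone. By library size alone, r with the GC slope was -0.000896 for FZD4 and -0.0762 for FZD5. The causes were not tested.

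With one tumor left out, r1-r4 fold changes ran from -0.204 to 0.0979 for FZD1, -0.217 to 0.119 for FZD4, -0.00671 to 0.102 for FZD5 and -0.458 to 0.1 for FZD7. For all Oxy186 tumors they ran from -0.0952 to 0.056 for FZD1, -0.0108 to 0.119 for FZD5, -0.236 to 0.0386 for FZD7 and -0.244 to 0.0593 for FZD8. For Oxy210 they ran from -0.00763 to 0.19 for FZD1, -0.0367 to 0.0816 for FZD5, -0.0652 to 0.0801 for FZD6 and -0.106 to 0.117 for FZD7, and for Oxy186 over Oxy210 from -0.197 to 0.0744 for FZD7. Depth limits FZD9 and FZD10 most.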
